A study of Homo sapiens with 6 samples.

Results

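The genes described here are 10 tubulin isotypes, 7 of beta-tubulin (Tubb2a, Tubb2b, Tubb3, Tubb4a, Tubb4b, Tubb5 and Tubb6) and 3 of alpha-tubulin (Tuba1a, Tuba1b and Tuba1c), chosen by their symbols among the 22989 genes of the deposited count table. All 10 symbols were found. They were compared between 3 RNA-seq libraries labelled LINC00115 KD, from cells carrying a short hairpin RNA (shRNA) against the long noncoding RNA LINC00115, and 3 libraries labelled WT, called control here. According to the study, the cells were BCSC (breast cancer stem-like cells, sorted for aldehyde dehydrogenase activity) of MDA-MB-231, a human triple-negative breast cancer line made resistant to paclitaxel (PTX). By this description every library comes from PTX-resistant cells, which the counts alone cannot show. No PTX-sensitive or drug-treated sample was compared. In the labels the KD samples are sh115-1, sh115-2 and sh115-3, whereas in the study sh115-1 and sh115-2 are different shRNAs and a control shRNA (shC) served as control. The study names sh115-2 as the hairpin of its sequenced KD cells, which the sample names alone do not show, and whether WT cells carried shC is not settled here. Nothing in the labels says that the libraries of a group came from separate cultures, so p-values measure only the spread between these libraries.

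Tubulin is a dimer of 1 alpha and 1 beta subunit, and dimers polymerize into the microtubules of the cytoskeleton and the mitotic spindle. Mammals make several isotypes of each subunit from separate genes, which are alike over most of their length and differ mainly in the C-terminal tail, the site of most tubulin modifications. Paclitaxel binds beta-tubulin in the polymer and stabilizes it. Among the beta isotypes, Tubb5 (TUBB in human nomenclature, class I) and Tubb4b (class IVb) are widely expressed, Tubb6 (class V) is found in many non-neural cells, Tubb2a and Tubb2b (class II) and Tubb4a (class IVa) are best known from brain, and Tubb3 (class III) is the neuronal isotype that is often discussed in taxane resistance.

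The library totals lay between 36979221 and 38799331 counts, with the members taking 0.456% to 0.506% of them. Pairs of libraries within a group had a chi-square per degree of freedom of 3.94 to 7.96 over genes, where copies would give about 1, and each was counted as its own sample. The table lists its genes by symbols in mouse style, with 4648 Gm and 1135 Rik names (both forms of mouse gene models). Its class I beta-tubulin stands there as Tubb5, the mouse symbol. The listed genes are thus those of a mouse annotation, whereas the labels name human cells. The library totals above are made up wholly of counts on these listed genes, in all 6 libraries. The species of the sequenced cells was not tested by sequence and is not settled here. The values below are those of the listed symbols. LINC00115 is listed under no name, so the knockdown could not be checked and every direction rests on the labels. As to the labelled cells, Vim (126885 to 145878 counts) and Cd44 (32751 to 36274) were high, while Snai2 and Cdh2, on the same list of 8 mesenchymal markers, had at most 2 counts. Of the 6 mesenchymal markers tested, 3 rose in KD, 1 fell and 2 did not pass, where 36.7% of all genes tested passed in each direction. Of 8 epithelial markers, Epcam had at most 5 counts, but Krt8 (17687 to 29602 counts) and Krt18 (4856 to 9369) were high. All 4 epithelial markers tested rose in KD, where 36.7% of all genes tested rose. Cdh1 and Krt7 were called higher with at most 4 counts in any control library, so that they passed the low-count filter through the KD libraries alone. Of the markers not tested, Krt19 (7, 3 and 4 counts in control, 1, 2 and 3 in KD libraries) and Esrp1 (4, 1 and 2 against 1, 0 and 0) were lower in KD. Cldn4 (0, 0 and 1 against 12, 9 and 6) and Epcam (0, 1 and 1 against 1, 3 and 5) went up. The part of these markers in the tubulin results was not tested.

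To show how the isotypes differ, and how far reads can tell them apart, the last 60 bases of the human beta-tubulin coding sequences (before the stop codon) were read from the GENCODE annotation and transcripts of GRCh37. They are human reference sequences, given 5′ to 3′. The table lists mouse symbols, so they need not be the sequences on which the deposited reads were counted. Capitals mark bases that differ from TUBB, or have no partner in it, in a global alignment. Bases of TUBB that are missing from another sequence are not marked.
TUBB: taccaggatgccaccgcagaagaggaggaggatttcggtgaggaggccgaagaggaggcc
TUBB4B: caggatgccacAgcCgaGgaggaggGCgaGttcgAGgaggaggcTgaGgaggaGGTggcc
TUBB6: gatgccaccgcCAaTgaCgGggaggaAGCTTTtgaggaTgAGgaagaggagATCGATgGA
TUBB2A: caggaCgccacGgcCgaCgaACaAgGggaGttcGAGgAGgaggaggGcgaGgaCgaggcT
TUBB2B: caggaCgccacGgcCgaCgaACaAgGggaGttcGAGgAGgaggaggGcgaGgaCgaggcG
TUBB4A: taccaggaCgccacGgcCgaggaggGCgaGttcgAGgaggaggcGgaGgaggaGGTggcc
TUBB3: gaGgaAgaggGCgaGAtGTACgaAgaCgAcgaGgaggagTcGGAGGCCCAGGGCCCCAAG

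These stretches lie in TUBB at chr6:30692112-30692171 on the plus strand, TUBB4B at chr9:140137946-140138005 on the plus strand, TUBB6 at chr18:12326067-12326126 on the plus strand, TUBB2A at chr6:3154100-3154159 on the minus strand, TUBB2B at chr6:3224988-3225047 on the minus strand, TUBB4A at chr19:6495178-6495237 on the minus strand and TUBB3 at chr16:90002150-90002209 on the plus strand. Between 13 and 34 of the 60 bases differed from TUBB or had no partner in it, fewest in TUBB4A and TUBB4B and most in TUBB3. The tails of TUBB2A and TUBB2B differed from each other only in the last letter shown. Over the whole coding sequence TUBB2A and TUBB2B were 98.2% identical, and 72.6% of the 50-base windows of TUBB2B also occurred in TUBB2A. By contrast, 0.0% of the windows of TUBB and 1.55% of those of TUBB6 occurred in another member. In between lay TUBB4B (8.01%), TUBB4A (11.7%) and TUBB3 (11.7%). Only the 10 members were compared, not pseudogenes or other tubulins. The split of counts between Tubb2a and Tubb2b is thus uncertain, and that of Tubb5 and Tubb6 is less so, as far as the human sequences go, since the read length and the treatment of reads with several matches are not given in the sources used here.

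Between 57.1% and 68.3% of the 50-base windows of the human coding sequences of the 3 alpha isotypes occurred in another member, so how reads were divided among Tuba1a, Tuba1b and Tuba1c is uncertain as well.

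Counts were scaled to normalized CPM (counts relative to the library total, adjusted by edgeR's TMM factors), and a gene is said to rise or fall in LINC00115 KD where edgeR's quasi-likelihood test gave an adjusted p under 0.05. It is called higher or lower where the fold change was also over 2. Of the 10 isotypes, 9 passed the filter on low counts. Among these, 6 rose (Tubb2a, Tubb2b, Tubb4b, Tubb6, Tuba1b and Tuba1c) and 3 fell (Tubb4a, Tubb5 and Tuba1a), where 36.7% of the 13497 genes tested rose and 36.7% fell. Only 1 isotype, Tubb2b, was called higher and 1, Tubb4a, was called lower, against 10.2% and 9.98% of all genes tested. Most of the genes tested thus passed in 1 direction or the other (edgeR put the biological coefficient of variation at 5.21%), and passing is not particular to tubulins.

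**Figure D1:**
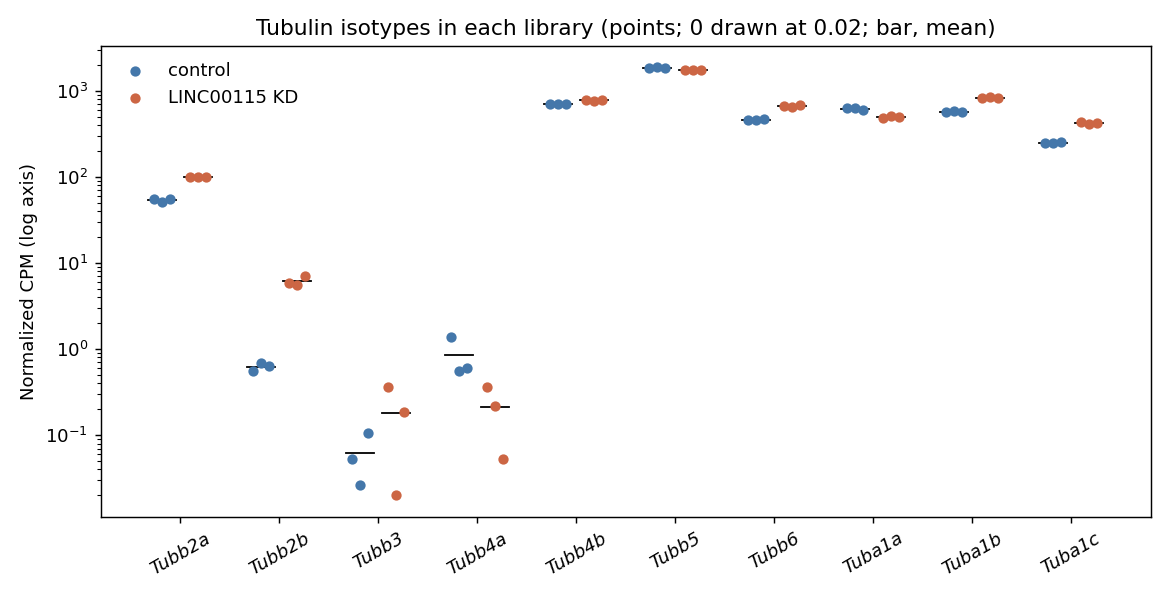
Normalized CPM (log axis) of each tubulin isotype in the 3 control and 3 LINC00115 KD libraries, with points for libraries, bars for group means and a value of 0 drawn at 0.02. Tubb2b stands at 0.557 to 0.689 in the control and 5.64 to 7.11 in the KD libraries, while Tubb5 stays between 1749 and 1889 in all 6.

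Tubb5, the constitutive class I isotype, had the most counts of all members. Its normalized CPM was 1847, 1889 and 1880 in the control libraries and 1751, 1760 and 1749 in the KD libraries. The groups did not overlap, but the distance between them was small. Tubb5 fell from 1872 ± 21.9 to 1753 ± 5.70 (SD, n = 3 each), with a log2 fold change of −0.095 and a standard error (SE) of 0.027 (adjusted p = 0.0023 by the quasi-likelihood test of edgeR).

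Tubb4b, a widely expressed isotype that is also a main beta-tubulin of cilia, had 710.1, 710.6 and 708.2 normalized CPM in the control libraries and 789, 771 and 796 in the KD libraries. All KD libraries were above all control libraries by roughly the same small step. The log2 fold change was 0.15 (SE 0.030, adjusted p = 4.87e-05). A list of 10 ciliated cell markers summed to 1.67 to 3.04 normalized CPM in control and 2.55 to 3.26 in KD libraries, and 5 of its genes were under 10 counts in every library. Foxj1, a master regulator of ciliated cells, was the 1 marker of the list that passed, with 5, 4 and 5 counts in the control and 25, 21 and 12 in the KD libraries (log2 fold change 2.02, adjusted p = 0.00462), and it was tested only because of the KD libraries. The part of these markers in the result was not tested.

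Tubb6, the class V isotype, showed the clearest rise among the abundant beta isotypes. It had 459, 464 and 468 normalized CPM in the control libraries and 667, 656 and 686 in the KD libraries. The spread within a group was at most 15.4 (SD, n = 3), while the means were 463.8 and 669.6. The log2 fold change was 0.53 (SE 0.031, adjusted p = 7.37e-17), a fold change of 1.44.

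The class II pair rose most. Tubb2a had 56.2, 51.5 and 55.8 normalized CPM in the control libraries and 99.3, 100.9 and 99.7 in the KD libraries, a log2 fold change of 0.87 (SE 0.048, adjusted p = 1.11e-17). Its fold change of 1.83 was just under the threshold of 2.

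Tubb2b had 21, 26 and 24 counts in the control libraries and 229, 207 and 270 in the KD libraries. It was low in every control library and about 10 times higher in every KD library, yet even there it remained a minor gene beside Tubb2a. Its normalized CPM rose from 0.627 ± 0.0660 to 6.22 ± 0.780 (SD, n = 3), a log2 fold change of 3.30 (SE 0.24, adjusted p = 2.58e-14). The ratio of summed counts, chosen after its values were seen, was 9.93 with an exact 95% interval of 7.77 to 12.9 that covers counting error only. Because Tubb2a and Tubb2b share most of their coding sequence, they were also summed into 1 gene. The sum rose from 55.1 ± 2.59 to 106 ± 0.840 normalized CPM, with a log2 fold change of 0.95 (SE 0.048, adjusted p = 9.26e-19). For each 100 Tubb2a counts there were 0.991, 1.34 and 1.14 Tubb2b counts in the control libraries and 5.96, 5.59 and 7.13 in the KD libraries, higher in every KD than in any control library.

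Markers of other cell types were measured beside these genes. The summed level of 10 lung markers was 1.65 to 1.96 normalized CPM in control and 73.3 to 84.2 in KD libraries. All 9 that were tested were called higher, where 10.2% of all genes tested were. However, 6 of them had 0 counts in every control library and Lamp3 had 1, 6 and 4, so these were tested only because of the KD libraries. Neuron markers summed to at most 1.11 normalized CPM in the control libraries and at most 1.04 in the KD libraries over the 7 of 10 found in the table. Single markers went either way on few counts, with Syt1 at 0 counts in every control library and 2, 5 and 6 in the KD libraries, and Rbfox3 at 0 in every KD library and 1 count in 1 control library. Scgb1a1, the main secretory protein of airway club cells, had 0 counts in every control library and 1516, 1586 and 1843 in the KD libraries. The part of lung markers in the rise of Tubb2b was not tested. In bulk RNA, more cells that express a gene and more RNA per cell cannot be told apart.

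Tubb4a and Tubb3 were barely counted. Tubb4a, a brain isotype, had 52, 21 and 23 counts in the control libraries and 14, 8 and 2 in the KD libraries. Every KD library was below every control library, but control replicate 1 stood well above the other two. The log2 fold change was −1.99 (SE 0.58, adjusted p = 0.00280). Since the gene passed the low-count filter through its control libraries alone, and since without control replicate 1 it was −1.45 (adjusted p = 0.0656), this call rests on that library. Tubb3 had 2, 1 and 4 counts in the control libraries and 14, 0 and 7 in the KD libraries, did not pass the filter, and its groups overlapped. Its 0 in KD replicate 2 allows up to 3 counts, or 0.0817 normalized CPM. At this depth the neuronal isotype discussed in taxane resistance was thus close to the limit of detection in both groups, and no difference was detectable.

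**Figure D2:**
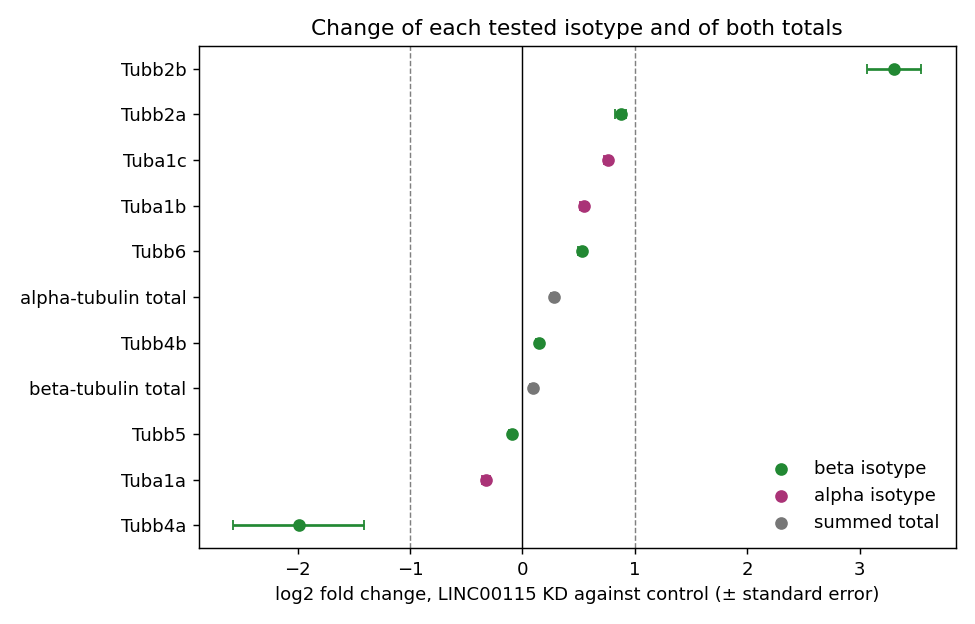
The log2 fold change of LINC00115 KD against control, with its standard error, for the 9 isotypes tested and for the summed beta and alpha totals, where dashed lines mark a fold change of 2. Tubb2b (3.30) and Tubb4a (−1.99) lie beyond the lines, and the totals lie at 0.096 and 0.28.

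Together the 7 beta isotypes took 3075, 3116 and 3114 normalized CPM in the control libraries and 3314, 3293 and 3338 in the KD libraries. As a summed row in the same fit, the beta-tubulin total rose with a log2 fold change of 0.096 (SE 0.025, adjusted p = 0.00102). It was 0.055 (adjusted p = 0.0445) with upper quartile scaling, which shifts the median of all genes to −0.047. The total thus moved by a fold change of 1.07, while single isotypes moved in both directions beneath it.

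As a share of the beta-tubulin counts, Tubb5 made up 60.1%, 60.6% and 60.4% in the control libraries and 52.8%, 53.4% and 52.4% in the KD libraries. This share was lower in 3 of 3 KD libraries, with a difference of −7.47 percentage points. Tubb6 took up most of the difference. Its share was 14.93%, 14.89% and 15.04% in the control and 20.1%, 19.9% and 20.6% in the KD libraries, 5.24 points higher. Tubb2a made up 1.76% ± 0.0937 of the beta counts in the control and 3.02% ± 0.0422 in the KD libraries (SD, n = 3), and Tubb2b 0.0202% ± 0.00199 and 0.188% ± 0.0223. Tubb4b held 22.9% ± 0.188 and 23.7% ± 0.246, a difference of 0.819 points. Tubb4a (0.0274% and 0.00637%) and Tubb3 (0.00199% and 0.00548%) were negligible parts of the total. In a two-sided exact permutation test, each isotype but Tubb3 gave p = 0.1, the smallest that 3 against 3 libraries allow (0.117 adjusted over the 7 isotypes), and Tubb3 gave p = 0.4. The test cannot pass a threshold of 0.05 in this design, so the shares rest on the gap between groups that do not overlap, for all isotypes except Tubb3. Of all genes tested, 75.6% had groups that did not overlap in normalized CPM.

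**Figure D3:**
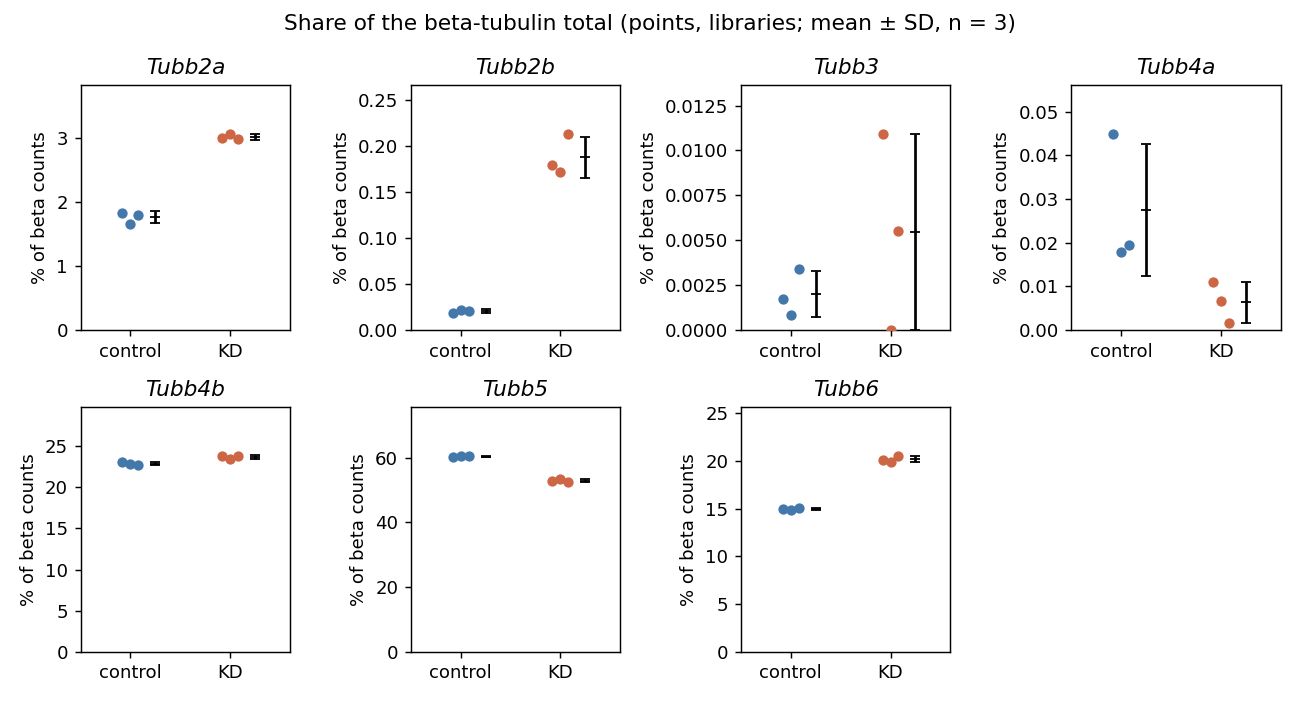
Share of each beta isotype in the summed counts of the 7 isotypes (percent, each panel with its own axis from 0), with points for the 3 libraries of each group and the mean ± SD beside them. Tubb5 goes from 60.4% to 52.9% while Tubb6 goes from 14.95% to 20.2% and Tubb2a from 1.76% to 3.02%.

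Counts depend on transcript length, so levels of different isotypes were set in order only after division by the length of the human transcript (1563 bases for TUBB4B to 2515 for TUBB). The counted transcripts may have other lengths. On this per-base scale Tubb5 was first in both groups, with 50.3% of the beta signal in control and 43.0% in KD libraries. Tubb4b followed with 30.7% ± 0.219 and 31.0% ± 0.266, groups that overlapped, and Tubb6 was next with 16.7% and 21.98%. Tubb2a came after it with 2.28% and 3.82%. The order of these 4 was the same in both groups and neighbours differed by far more than their spread. Tubb2b was above Tubb4a in KD libraries (0.200% against 0.00572%), while in control libraries both were close (0.0220% against 0.0252%), within the SD of Tubb4a (0.0139 points).

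In the alpha family, Tuba1b and Tuba1c rose and Tuba1a fell. Tuba1a, the isotype best known from developing neurons, had 636, 634 and 604 normalized CPM in the control libraries and 491, 510 and 497 in the KD libraries, a log2 fold change of −0.32 (SE 0.032, adjusted p = 4.84e-11). All KD libraries were below all control libraries.

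Tuba1b, a widely expressed isotype, went the other way, with 566, 587 and 573 normalized CPM in control and 838, 849 and 829 in KD libraries. Its log2 fold change was 0.54 (SE 0.030, adjusted p = 1.63e-17). Tuba1c had 246, 251 and 257 normalized CPM in the control and 432, 415 and 430 in the KD libraries, a log2 fold change of 0.76 (SE 0.034, adjusted p = 2.25e-20). Both gaps were many times the SD within a group (at most 10.5).

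Of the alpha counts, Tuba1a made up 43.0% ± 0.900 in the control and 28.3% ± 0.428 in the KD libraries (SD, n = 3), Tuba1b 39.6% ± 0.474 and 47.6% ± 0.335, and Tuba1c 17.3% ± 0.521 and 24.1% ± 0.636. Divided by human transcript length, Tuba1a stood first in the control (45.8% against 43.3% for Tuba1b) and Tuba1b in the KD libraries (53.4% against 30.9% for Tuba1a), with Tuba1c last in both. The summed alpha-tubulin total does not depend on how reads were divided among these paralogs, but it would depend on whether reads with several matches were dropped. It rose from 1452 ± 19.0 to 1764 ± 9.25 normalized CPM, with a log2 fold change of 0.28 (SE 0.027, adjusted p = 3.57e-11).

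The beta members thus had 2.12, 2.12 and 2.17 counts per alpha count in the control libraries and 1.88, 1.86 and 1.90 in the KD libraries. The ratio was lower in 3 of 3 KD libraries (two-sided exact permutation p = 0.1, the smallest possible). It is a ratio of counts of the listed genes and not of subunits.

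The other tubulins were mostly lower in KD. Their list held 10 genes, of which 9 were in the table and 6 were tested. Of these, 5 fell and none rose, where 36.7% of all genes tested fell, with a median log2 fold change of −0.61 against −0.0061 over all genes tested. Tubg2, a gamma-tubulin, was called lower, with 360, 326 and 300 counts in the control and 136, 136 and 145 in the KD libraries (log2 fold change −1.24, SE 0.15, adjusted p = 6.16e-09). Its paralog Tubg1, the gamma-tubulin that nucleates microtubules at centrosomes, fell less (−0.40), and so did Tubd1 (−0.81) and Tube1 (−0.84), the delta and epsilon tubulins of centrioles. Tuba4a, the alpha isotype encoded without the last tyrosine, fell slightly (−0.12, adjusted p = 0.0144). Tuba8 had a log2 fold change of 0.61 and did not pass (adjusted p = 0.292). Tubb1, the beta-tubulin of platelets, had 1 count in 1 KD library and 0 elsewhere.

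New tubulin is folded by prefoldin, the CCT chaperonin and the tubulin cofactors, which hold, close and join the subunits. Of 23 such genes tested, 8 rose and 9 fell, and the median log2 fold change was −0.00015. These shares are close to the 36.7% of all genes tested that passed in each direction. Of the 8 subunits of the CCT chaperonin, 5 rose, 2 did not pass and Tcp1 alone fell. Their ends were Cct3 at 0.59 (376.6 ± 19.3 to 567.1 ± 16.0 normalized CPM) and Tcp1 at −0.30 (545.8 ± 17.1 to 442.4 ± 6.58). The prefoldin subunits Vbp1 (−0.51) and Pfdn6 (−0.54) fell, as did cofactor A (Tbca, −0.48), while cofactor D (Tbcd, 0.56) rose. Tbcel, a cofactor E-like protein, was called higher, but passed the low-count filter through the KD libraries alone. It had 3 counts in each control library and 42, 64 and 62 in the KD libraries, a ratio of summed counts of 18.6 (exact 95% interval 9.59 to 41.5, counting error only). All of these genes, Tbcel included, fall outside the rule by which genes are named and were picked after their values were seen.

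A further list of 24 genes held tubulin-modifying enzymes and proteins tied to them, not all of which act on the tails. Of the 18 tested, 7 rose and 10 fell, where 36.7% of all genes tested passed in each direction. With the fold change threshold, 1 was called higher and 3 lower, and the median was −0.28 on the log2 scale. Among all genes tested, 10.2% were called higher and 9.98% lower. Vash1, a carboxypeptidase that removes the last tyrosine of alpha-tubulin, had 4, 2 and 3 counts in the control libraries and 208, 239 and 182 in the KD libraries. Every control library was near 0 and every KD library was far above it. The ratio of its summed counts was 69.8 (exact 95% interval 36.5 to 153, counting error only, adjusted p = 1.09e-16 in edgeR's quasi-likelihood test), and the gene was tested only because of its KD libraries. Its relative Vash2, with the same activity, fell from 22.1 ± 1.40 to 8.50 ± 0.608 normalized CPM (log2 fold change −1.38, SE 0.097, adjusted p = 7.90e-15), and their shared partner Svbp fell to a lesser degree (−0.41). Ttl, the ligase that puts the tyrosine back, rose from 36.8 ± 2.99 to 71.7 ± 1.30 normalized CPM (log2 fold change 0.96, adjusted p = 1.15e-16).

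Atat1, the acetyltransferase of alpha-tubulin, was called lower, with 1171, 933 and 987 counts in the control and 444, 326 and 362 in the KD libraries (log2 fold change −1.45, SE 0.10, adjusted p = 4.27e-15). The deacetylases Hdac6 (−0.78) and Sirt2 (−0.53) fell too. Agbl5, a deglutamylase that trims glutamate side chains of the tails, was called lower from 39.6 ± 3.45 to 18.04 ± 0.188 normalized CPM (−1.14). Its relatives on the list went either way. Agtpbp1 rose from 58.1 ± 2.12 to 72.6 ± 2.73 normalized CPM (0.32), and Agbl3 fell (−0.87). Ttc5, the factor that recognizes nascent tubulin and starts the decay of its mRNA when free tubulin is in excess, fell from 23.7 ± 2.16 to 16.7 ± 0.586 (−0.51, adjusted p = 2.36e-06). Svbp, Ttl, Hdac6, Sirt2, Agtpbp1, Agbl3 and Ttc5 were named after their values were seen.

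**Figure D4:**
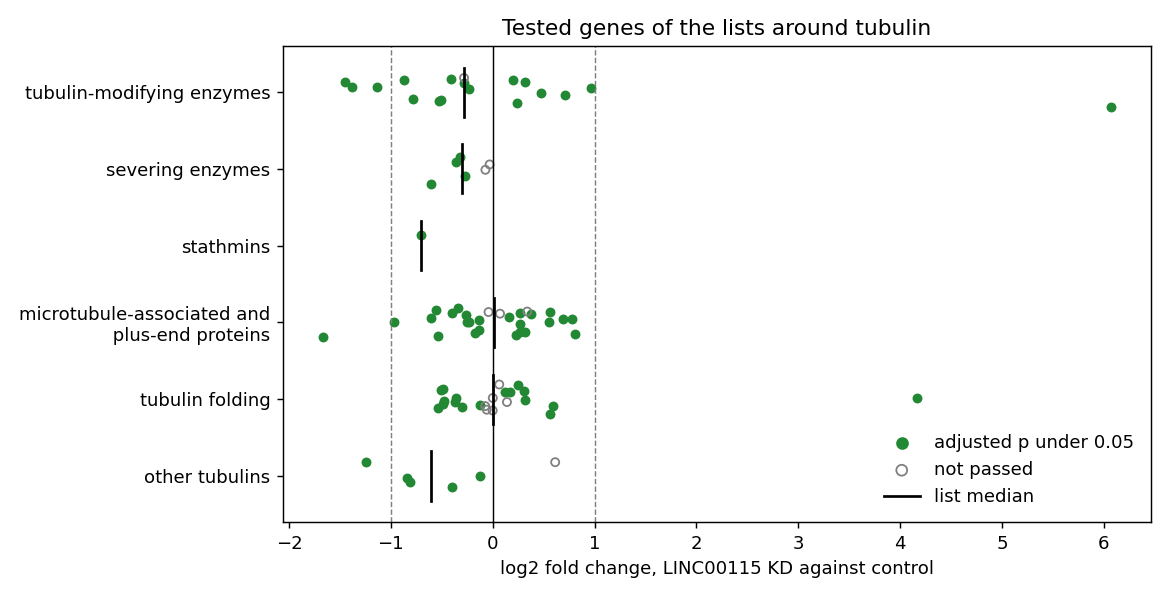
The log2 fold change of LINC00115 KD against control for the tested genes of 6 lists around tubulin, 1 point per gene, filled where the adjusted p was under 0.05, with a black line at each list's median and dashed lines at a fold change of 2. Vash1 (6.07, a fitted value against a group near 0) and Tbcel (4.17) lie far to the right, and the medians lie between −0.71 and 0.016.

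Proteins that bind microtubules moved in both directions. Of 28 tested genes 12 rose and 13 fell, where 36.7% of all genes tested passed in each direction, with a median of 0.016. Mapt (tau) was called lower on few counts (184, 92 and 136 in the control, 49, 21 and 60 in the KD libraries, log2 fold change −1.67, adjusted p = 1.10e-05) and is named outside the rule because a control library had under 100 counts. Map4, the main non-neuronal microtubule-associated protein, rose from 333.0 ± 6.63 to 433.5 ± 8.06 normalized CPM (0.38), Map1b from 488.6 ± 9.77 to 715.7 ± 20.8 (0.55), and Dclk1 fell (−0.97). Stmn1, or stathmin, which sequesters tubulin dimers, fell from 135.7 ± 2.04 to 83.2 ± 3.10 (−0.71, adjusted p = 1.49e-16) and was the only stathmin that was tested. Of the 6 severing enzymes tested, such as katanin and spastin, 4 fell and none rose (median −0.30, with 36.7% of all genes tested falling). Map4, Map1b, Dclk1 and Stmn1 were likewise named after their values were seen. Proliferation markers moved as well. Of 8 genes, 7 fell and 1 (Ccnb1) rose, where 36.7% of all genes tested passed in each direction. The summed level of these 8 markers was 3130 to 3215 normalized CPM in the control and 2413 to 2495 in the KD libraries. Their part in the changes of the spindle-related genes was not tested.

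Over 10825 other genes that had 100 counts or more in each library of the group where they were higher, the genes whose centred log2 normalized CPM over the 6 libraries lay nearest to that of Tubb2b were Ly6a (root-mean-square distance 0.090 on the log2 scale), Gbp3 (0.12), Igtp (0.13), Phf11d (0.14) and Fam167a (0.14). Their log2 fold changes lay between 3.16 and 3.40, close to the 3.30 of Tubb2b, and with 2 groups of 3 libraries this measure mostly ranks genes by that difference.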

How the data were processed

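RNA-seq libraries of 3 LINC00115 KD and 3 control samples were compared. The authors trimmed adapters and mapped reads with HISAT2 to hg19 according to the methods, while the submitters' processing notes name hg38, HISAT2, featureCounts and DESeq2. They deposited 1 table of raw read counts per gene, and the annotation, strand and treatment of multiply mapped reads are not given in the sources used here. Columns were matched to samples by the description in the labels, and 0 columns of values were left out.

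Counts were filtered by filterByExpr (minimum count 10, minimum total count 15), scaled by TMM and tested with edgeR 4.0.16 in R 4.3.3 (quasi-likelihood, group only, Benjamini-Hochberg over 13497 genes). Calls needed an adjusted p under 0.05 and more than a fold change of 2, as in the study. A standard error is |log2 fold change| over the root of the F statistic. Summed rows of the isotypes were added in a second fit with library totals unchanged. Shares were tested by exact permutation (SciPy 1.17.1). The pipeline was tested on simulated data (random seed 11). Intervals cover counting error only. Human symbols were matched by hand (Tubb5 to TUBB), and sequences and lengths are from GENCODE v44lift37. Sequences of the alpha isotypes are not reported here.

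Named were all 10 isotypes and, per list, up to 3 called genes each way by size of change with 100 counts or more in each library of the group where it was higher, as well as the 5 genes nearest to the isotype that changed most (log2 normalized CPM, prior count 2). The isotypes and lists were chosen with earlier results of these data known. Alternatives were scaling by size factors of DESeq2 1.42.0, by upper quartiles or by totals alone, the Wald test of DESeq2, no filter, 10 counts in every library, each replicate left out, a replicate block, Tubb1 in the beta total, counts per base and Tubb2a with Tubb2b summed.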

Additional observations from a re-analysis of the deposited data

How the results depend on the processing

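Across the 13 alternatives, the log2 fold changes of all 9 tested isotypes and of both totals kept their direction, and their adjusted p stayed under 0.05 except for Tubb4a without control replicate 1 (−1.45, adjusted p = 0.0656). Tubb2b lay between 3.20 and 3.38, Tubb6 between 0.49 and 0.55, Tuba1a between −0.37 and −0.30, Tubb5 between −0.14 and −0.086, and the beta-tubulin total between 0.055 and 0.11. The isotypes called lower numbered 0 in place of 1 with at least 10 counts in every library, where Tubb4a is not tested, and between 0 and 1 with each replicate left out. Without a low-count filter Tubb3 had a log2 fold change of 1.52 (adjusted p = 0.300).

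With counts per base of the human transcript, the difference of shares became 1.54 points for Tubb2a and 0.316 points for Tubb4b, since division by length gives the long TUBB transcript less weight, and the differences of the other isotypes moved by less than 1 pooled within-group SD, while the shares themselves changed with the scale. The deviations of samples with the same replicate number had correlations of 0.042, −0.015 and −0.021, and a pair with different numbers reached 0.039. With 3 libraries in each group, such values cannot show whether equal numbers mark a pairing. With the replicate number as a block, the beta-tubulin total had a log2 fold change of 0.096 and the genes called over the whole table numbered 1316 lower and 1360 higher, against 1347 and 1381. Depth limits Tubb3 and Tubb4a, which had at most 52 counts in any library.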
